A study of Drosophila melanogaster with 2 samples.

Results

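Hml, fon and Tg are 3 genes of the hemolymph clot, the gel that seals wounds in insect larvae. They were chosen by name and looked up by gene identifier among the 17612 genes counted, and all 3 had reads in at least 1 kept cell, as had 14525 of the 17612. Coagulation in Drosophila begins when hemocytes, the blood cells, and proteins of the hemolymph form a fibrous network that is then cross-linked and hardened. Hemolectin, the product of Hml, is a large secreted protein of hemocytes and a fibre component of the clot, and its gene is widely used as a marker of plasmatocytes, the macrophage-like class of hemocytes. Fondue, the product of fon, is a hemolymph protein that is known from fat body, the tissue that fills the roles of liver and adipose tissue, and it is a substrate of the cross-linking reaction. Transglutaminase, the product of Tg, is the enzyme that joins clot proteins to one another.

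Single hemocytes were sequenced by the Smart-seq2 method, in which whole cDNAs are amplified without molecular identifiers, from the circulation and from the surface of the salivary glands, where they are called tumor-associated. All larvae came from crosses with Beadex MS1096-Gal4 (Bx), a driver active in the salivary gland, and the stocks listed include this driver with and without the hemocyte reporter EaterDsRed. Cells of both locations had been chosen for Eater, a marker of plasmatocytes, so the shares of other hemocyte classes are set in part by this choice. In the w1118 group the driver met no target, in the RasV12 group it drove UAS-RasV12, a constantly active Ras, and in the p35;RasV12 group it drove RasV12 together with p35, an inhibitor of effector caspases. Each circulating group came from 1 pool of 10 larvae. Each attached group came from 10 pairs of glands, dissected into separate droplets, and the labels do not give the gland of a cell. The larval age at this step was not given in the sources used here. Since the genotypes of the cells come from the deposited annotation, and the titles of the 2 deposited sets name 1 genotype each, groups were taken from the annotation. After a filter on mitochondrial reads and genes, 125 w1118, 126 RasV12 and 124 p35;RasV12 circulating cells and 40 RasV12 and 19 p35;RasV12 attached cells remained. No doublet caller was run, because cells were sorted or picked one by one, and no cell identifier occurs in both sets.

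Because each group is a single set of larvae or glands and the labels name no animal, cells are not replicates and no test was made. Levels are given as CPM, the reads of a gene per 1000000 reads of the cell or of all cells of a group, and differences as log2 ratios of the summed CPM. The intervals beside them are exact counting intervals at 95%, which cover counting error only, and without molecular identifiers amplified copies count as separate reads. The median cell held between 582057 and 637375 reads in the circulating groups and 11146487 and 11295065 reads in the attached groups. Circulating libraries were sequenced single-end and amplified over fewer cycles than attached libraries, which were paired-end with each mate counted, so location cannot be told apart from the method of collection, library and run. Expression of the gene sets that define the cells differed between the sets as well. The summed level of 7 plasmatocyte genes (NimC1, eater, srp, Pxn, He, Col4a1 and vkg) was 13671, 18561 and 22577 CPM in circulating w1118, RasV12 and p35;RasV12 cells, and 8672 and 8028 CPM in attached RasV12 and p35;RasV12 cells. Those of 8 fat body genes were between 48.5 and 73.8 CPM in circulating and 24078 and 47019 CPM in attached groups, and those of 10 salivary gland genes between 0.0627 and 0.492 CPM and between 21113 and 32112 CPM. In circulating w1118 cells 9 of the 10 gland genes were at 0, Sgs3 and Sgs4 among them, and Adh was at 0 in w1118 and RasV12 circulating cells.

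Hml was read in every kept cell of every group, whereas fon and Tg were close to absent from circulating cells and present in attached cells. Hml was also read in every well outside the groups, among them 4 circulating wells without a genotype that held 866 to 2500 reads. The shallowest kept cell, a circulating p35;RasV12 cell, held 2129 reads, so a read in every cell is alone no sign of expression in each. Per cell, Hml ranged from 3.98 to 14461 CPM with a median of 2014 CPM in circulating w1118 cells, from 6.53 to 14877 CPM with a median of 7766 CPM in circulating RasV12 cells, and from 8.32 to 15507 CPM with a median of 9439 CPM in circulating p35;RasV12 cells. In attached cells Hml ranged from 25.7 to 7862 CPM with a median of 1181 CPM for RasV12, and from 40.8 to 8226 CPM with a median of 1485 CPM for p35;RasV12. The 5 distributions overlapped over most of their range. Per kilobase of exons, which allows genes of different length to be set side by side, the summed level of Hml in circulating cells was between 271 and 775 CPM, against at most 0.160 for fon and 0.0869 for Tg. In attached RasV12 cells the order was fon at 192, Hml at 172 and Tg at 7.73 CPM per kilobase, and in attached p35;RasV12 cells fon at 491, Hml at 258 and Tg at 5.28 CPM per kilobase.

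**Figure D1:**
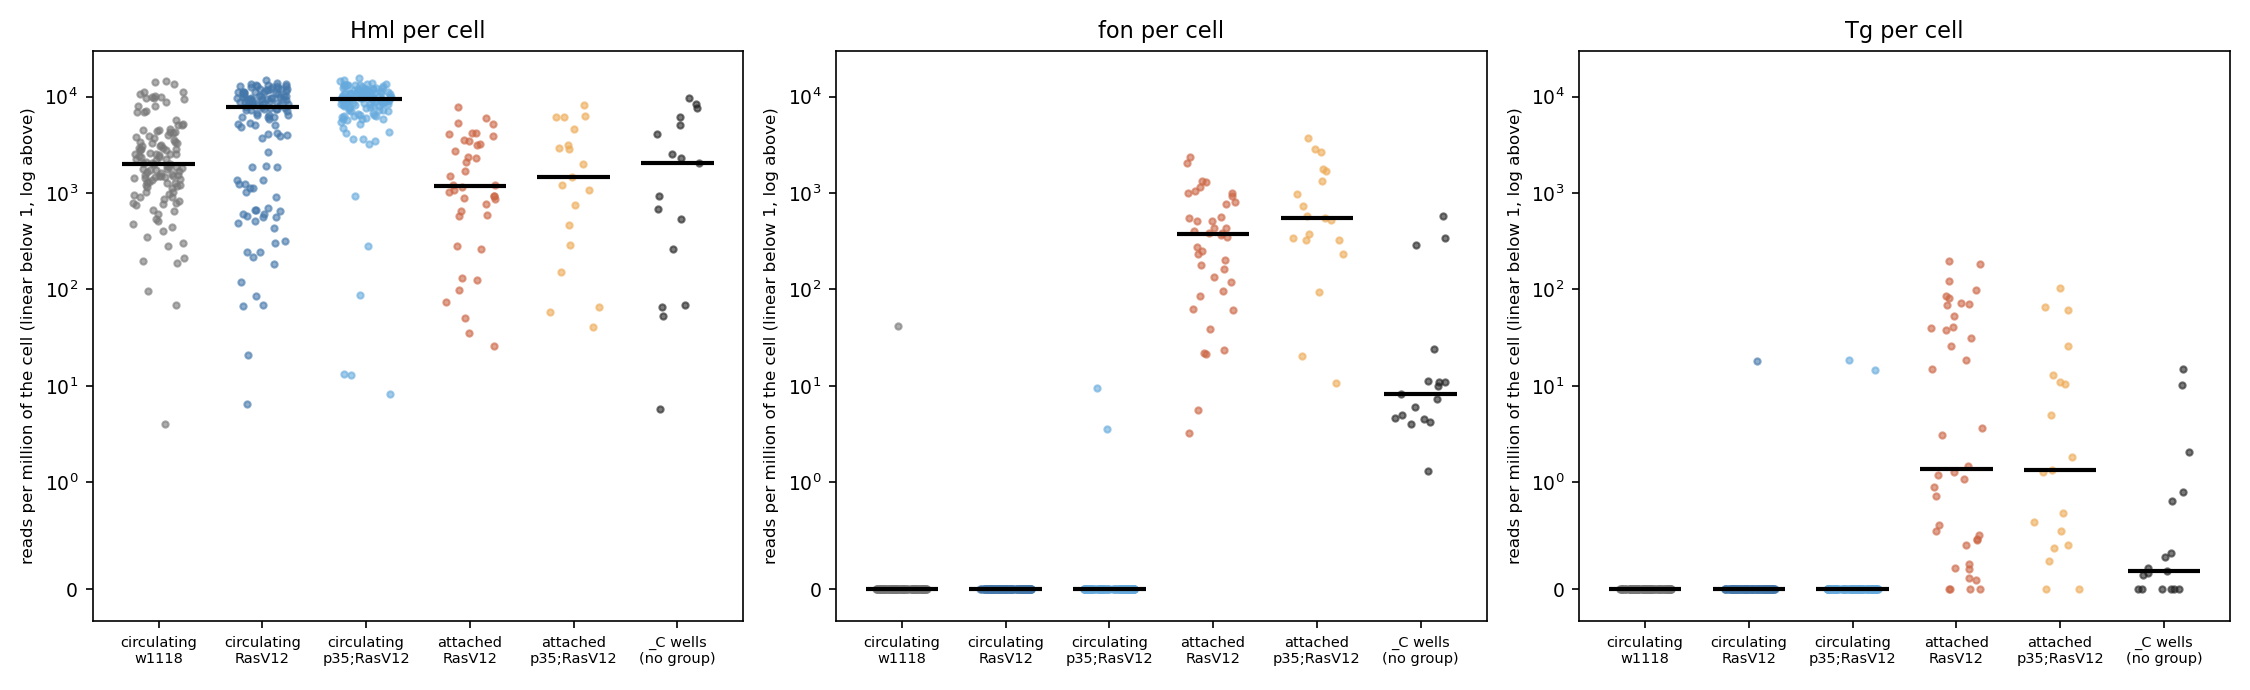
Reads per 1000000 reads (CPM) of each cell for Hml, fon and Tg in the 5 groups and in the 17 wells labelled with _C, which belong to no group. Each point is a cell, bars are medians and the axis is linear below 1 and logarithmic above. Hml is read in all circulating cells, with medians from 2014 CPM in w1118 to 9439 CPM in p35;RasV12. Levels of fon and Tg lie at 0 in all but 3 circulating cells each and spread over several orders of magnitude in attached cells.

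The first comparison addresses whether Hml differed between circulating hemocytes of tumor and control larvae. Hml (FBgn0029167) lies on chromosome 3L of dm6 from 13846054 to 13860001 on the plus strand, with 11756 bases of exons. Summed over cells, it stood at 3185 CPM in w1118, 6873 CPM in RasV12 and 9106 CPM in p35;RasV12. The log2 ratio was 1.11 for RasV12 over w1118 (interval 1.10 to 1.12), 0.41 for p35;RasV12 over RasV12 (0.40 to 0.41) and 1.52 for p35;RasV12 over w1118 (1.51 to 1.52). Both ratios over w1118 share the same control cells. At least 2-fold higher levels were found for 4.77% of 3309 genes with at least 50 CPM and a read in 25% of cells in RasV12 over w1118, for 2.14% of 3451 genes in p35;RasV12 over RasV12 and for 11% of 3500 genes in p35;RasV12 over w1118. Hml passed this fold in both comparisons with w1118 and not between the tumor genotypes.

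Relative to w1118, Hml moved further than each of the 7 plasmatocyte genes, which was not so between the tumor genotypes, where He stood at a log2 ratio of 0.45 and Hml at 0.41. In RasV12 over w1118 cells, 6 of the 7 were higher, none by 2-fold, with a median log2 ratio of 0.41, beside a median of 0.05 over all genes compared. The gene with the largest increase among the 7 was Col4a1, a collagen chain of basement membrane, at a log2 ratio of 0.63, while srp, the GATA factor of blood cells, was lower at -0.59. In p35;RasV12 over w1118 cells, 6 of the 7 were higher and again none by 2-fold, with a median of 0.85. Of the reads on Hml and the 7 genes together, Hml took a median of 14.2% per cell in w1118, 26.4% in RasV12 and 28.3% in p35;RasV12 circulating cells, with ranges of 0.0512% to 42.9%, 0.0895% to 42.2% and 0.335% to 44.0%. These ranges overlapped almost entirely.

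The genotypes differed in how many cells had little Hml and in how many had much, while their highest single cells were alike. Below 3000 CPM, a level chosen after the values were seen, were 84 of 125 circulating w1118 cells, 36 of 126 RasV12 cells and 6 of 124 p35;RasV12 cells. Above 9632 CPM, the level of the highest _C well with over 1000000 reads, were 10 of 125, 39 of 126 and 57 of 124 cells. The highest cells of the 3 genotypes, in contrast, lay between 14461 and 15507 CPM. The quartiles of the cells show the shape of this shift. The lower quartile was at 1187 CPM in w1118, 1504 CPM in RasV12 and 7251 CPM in p35;RasV12, and the upper quartile at 3856, 10201 and 11097 CPM. From w1118 to RasV12 mainly the upper quartile rose, and from RasV12 to p35;RasV12 mainly the lower.

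The deposited annotation numbers 5 clusters of circulating cells, made from the same counts, so that cluster levels are a description. In cluster 0 the median of Hml was 10624 CPM over 8 w1118 cells, 9870 CPM over 57 RasV12 cells and 9051 CPM over 93 p35;RasV12 cells. Cluster 2 gave similar medians of 8803 CPM over 3 cells, 9450 CPM over 20 cells and 10146 CPM over 29 cells. Cluster 4 was intermediate, with 4572 CPM over 20 w1118 and 5170 CPM over 16 RasV12 cells. Low levels were found in cluster 3, at 2376 CPM over 42 w1118 cells, and in cluster 1, at 1146 CPM over 52 w1118 and 588 CPM over 32 RasV12 cells. Clusters 0 and 2 held 8 and 3 of the 125 w1118 cells, 57 and 20 of the 126 RasV12 cells and 93 and 29 of the 124 p35;RasV12 cells.

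Within clusters 0, 2 and 4, the genotypes differed less in Hml than over all cells. The direction was the opposite in cluster 0 for every pair of genotypes, and in cluster 1 for RasV12 over w1118, the only pair compared there. The log2 ratio of RasV12 over w1118 was -0.18 in cluster 0, 0.05 in cluster 2 and 0.12 in cluster 4, and -0.76 in cluster 1. The ratio of p35;RasV12 over RasV12 was -0.15 in cluster 0 and 0.12 in cluster 2, and that of p35;RasV12 over w1118 was -0.34 and 0.17. Thus the 2-fold higher level in RasV12 cells did not hold within any of the 4 clusters that had at least 3 cells of both genotypes. Since the clusters were made from the expression of the same cells, this is a description of how the cells were grouped. A stricter filter (at most 5% mitochondrial reads and 200 to 4000 genes), which left 6 w1118, 12 RasV12 and 17 p35;RasV12 cells, gave log2 ratios of 1.94 for RasV12 over w1118 and 0.017 for p35;RasV12 over RasV12.

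**Figure D2:**
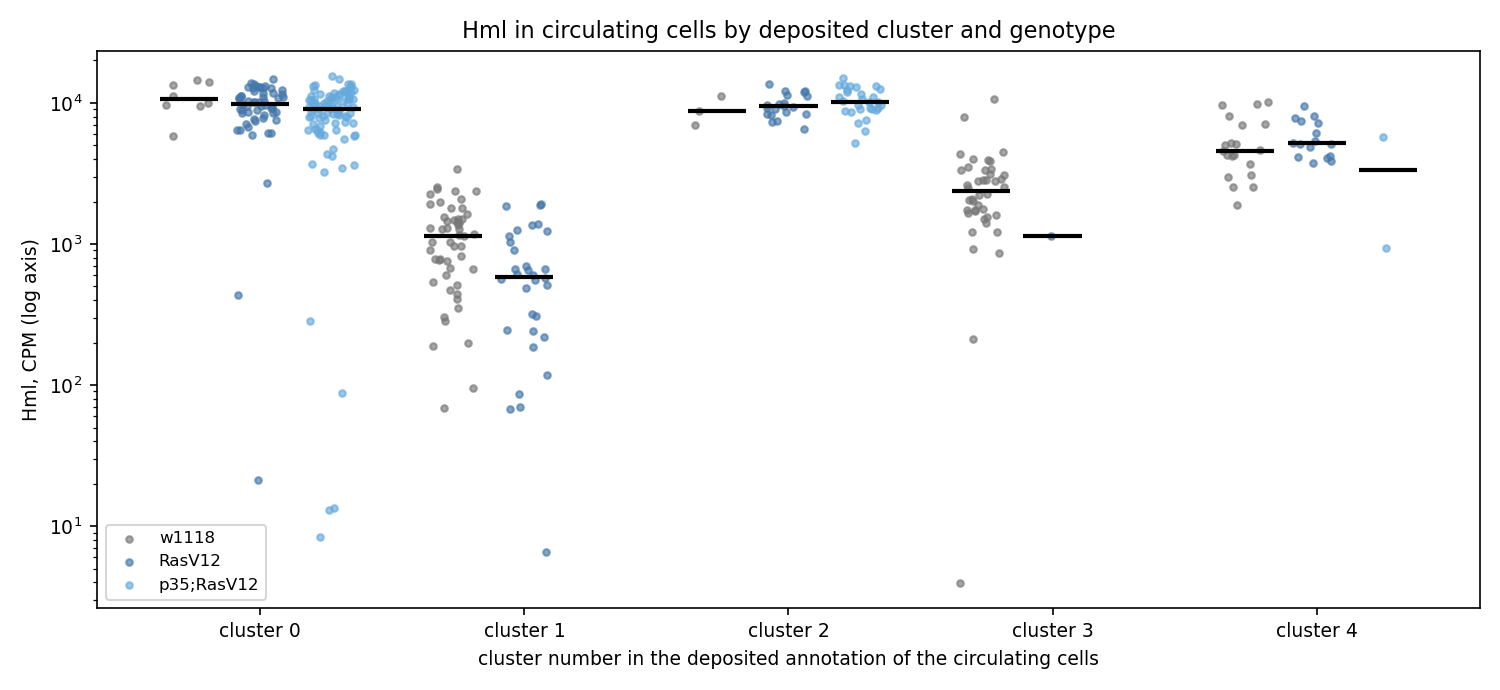
Hml in CPM (log axis) for each circulating cell by the cluster number of the deposited annotation and by genotype, where points are cells and bars are medians. In clusters 0 and 2 the medians lie between 8803 and 10624 CPM in every genotype, in cluster 1 at 1146 and 588 CPM, and w1118 cells fall mostly in clusters 1, 3 and 4.

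Few circulating cells had very low Hml. Less than 100 CPM was found in 3 w1118, 5 RasV12 and 4 p35;RasV12 cells, again a level chosen after the values were seen. The 4 p35;RasV12 cells, with 8.32 to 87.9 CPM of Hml, had between 5091 and 8386 CPM of atilla, the surface marker of lamellocytes, which are flat encapsulating hemocytes. The 8 w1118 and RasV12 cells had no read of atilla. Of these, 1 RasV12 cell with 21.1 CPM of Hml had 75274 CPM of the crystal cell list (PPO1, PPO2, lz, CG17109 and peb), genes of the hemocytes that store prophenoloxidase. In the other 7 cells, neither the lamellocyte nor the crystal cell list exceeded 800.1 CPM, and the 7 plasmatocyte genes together stood between 3154 and 7769 CPM. Low Hml was thus seen in cells with lamellocyte genes, in 1 cell with crystal cell genes and in cells with neither, among cells that had been chosen for Eater.

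Across cells, Hml followed the plasmatocyte genes. Spearman's rho of Hml with the summed list was 0.87 over 375 circulating cells, and 0.78, 0.84 and 0.58 within w1118, RasV12 and p35;RasV12 cells. These cells share a plate, a pool per genotype and the amplification, so rho describes them only. The Spearman correlation of Hml with the number of reads was 0.05. Among 6157 genes with a read in at least 25% of circulating cells, the 5 most like Hml were Ppn (rho 0.88), Col4a1 (0.84), vkg (0.81), NimB4 (0.81) and Idgf6 (0.80). Ppn encodes papilin, a basement membrane protein, Col4a1 and vkg the chains of collagen IV, NimB4 a secreted Nimrod protein and Idgf6 a secreted chitinase-like protein. Over all 6157 genes, the median rho with Hml was 0.04, and 21 genes reached 0.7. Ppn, like Hml, stood at higher summed CPM in tumor larvae, with 1285 CPM in w1118, 3923 CPM in RasV12 and 6221 CPM in p35;RasV12 circulating cells.

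The next comparison sets attached beside circulating hemocytes of the same genotype. Summed Hml was 2016 CPM in attached RasV12 and 3029 CPM in attached p35;RasV12 cells, and the log2 ratio of attached over circulating cells was -1.77 (-1.77 to -1.76) for RasV12 and -1.59 (-1.59 to -1.58) for p35;RasV12. At least 2-fold lower levels were common in this comparison, at 19.8% of 3596 genes for RasV12 and 32.6% of 3809 genes for p35;RasV12, and the median over all genes was -0.34 and -0.45. The 7 plasmatocyte genes were all lower in attached cells, 3 of them by 2-fold for RasV12 and 5 for p35;RasV12, with medians of -0.96 and -1.47. Under TMM scaling, a normalization to the bulk of genes that moved these ratios by 0.36 and 0.77, Hml stood at -1.41 and -0.82, so that the 2-fold call for p35;RasV12 was lost. Fat body and salivary gland reads make up a part of the totals of attached cells, and without those lists and mitochondrial genes the ratios of Hml were -1.68 and -1.45.

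Between attached cells, Hml differed by a log2 ratio of 0.59 (0.58 to 0.59) for p35;RasV12 over RasV12, under the 2-fold level. A single cell held 33.7% of the Hml reads of the attached p35;RasV12 group, and another held 19.3% of those of the attached RasV12 group. With the top cells of both groups left out at once, the ratio was 0.33. Levels of Hml in attached cells were spread widely within each genotype, with 28 of 40 RasV12 and 13 of 19 p35;RasV12 cells under 3000 CPM, and 5 and 3 cells under 100 CPM. By the 2 clusters of the deposited annotation of attached cells, the median was 763 CPM over 16 RasV12 and 464 CPM over 11 p35;RasV12 cells in cluster 0, and 2535 CPM over 24 and 3048 CPM over 8 cells in cluster 1.

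In attached cells as well, Hml rose and fell with the plasmatocyte genes. The Spearman correlation with the summed list was 0.88 over 59 cells, 0.89 within RasV12 and 0.86 within p35;RasV12. Each of the 7 genes had a positive rho with Hml, from 0.36 for He to 0.82 for eater, a phagocytosis receptor and the marker by which cells had been chosen. The 5 genes most like Hml among 8434 were eater (0.82), Ance-5 (0.81), LanB1 (0.81), Ppn (0.80) and Pxn (0.79). LanB1 encodes a laminin chain and Pxn peroxidasin, both of the extracellular matrix. Against the fat body list, rho of Hml was -0.54, and with the reads of all lists left out of the totals it was -0.55. Against the salivary gland list it was -0.43. The negative relation with the fat body list had exceptions, since the attached cell with the highest Hml, a p35;RasV12 cell at 8226 CPM, had 62076 CPM of the fat body list, above the median of 26086 CPM of its group.

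fon (FBgn0032773) lies on chromosome 2L of dm6 from 19383138 to 19386205 on the minus strand, with 2276 bases of exons. In circulating cells it had 29 reads in 1 of 125 w1118 cells, no read in 126 RasV12 cells and 10 reads in 2 of 124 p35;RasV12 cells. The cell with 29 reads had 41.8 CPM of fon and no read of the fat body list, and the other 2 cells had 9.43 and 3.60 CPM. Shares of cells with a read were 0.800% (0.0203% to 4.38%, Clopper-Pearson) for w1118 and 1.61% (0.196% to 5.70%) for p35;RasV12, and for RasV12 0 of 126 cells allows a share of up to 2.38% when set to 3 cells, with a Clopper-Pearson upper limit of 2.89%. All of this is in counts so low that the circulating genotypes cannot be ordered by fon at this depth.

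In attached cells, fon was read in 40 of 40 RasV12 and 19 of 19 p35;RasV12 cells. Per cell it ranged from 3.22 to 2345 CPM with a median of 373 CPM in RasV12, and from 10.8 to 3731 CPM with a median of 552 CPM in p35;RasV12. The ranges of the genotypes overlapped. No circulating cell reached the median of either attached group. Summed fon was 192 CPM per kilobase in attached RasV12 cells, at least 10692-fold higher than in circulating RasV12 cells when the latter are set to 3 reads over the group, and 491 CPM per kilobase in attached p35;RasV12 cells, with a log2 ratio over circulating p35;RasV12 cells of 13.08 (12.20 to 14.14). At least 2-fold higher levels in attached cells were seen for 11.5% of 3596 genes for RasV12 and 15% of 3809 genes for p35;RasV12. After every cell was thinned to 420000 reads, fon was still read in 39 of 39 attached RasV12 and 17 of 17 attached p35;RasV12 cells, and in 0 of 110 and 2 of 113 circulating cells of these genotypes.

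Within attached cells, fon was higher in p35;RasV12 than in RasV12, by a log2 ratio of 1.35 (1.34 to 1.36), beside 18.3% of 3337 genes at least 2-fold higher in this comparison. The cell with most fon reads held 29.9% of those of p35;RasV12, and without the top cell of each group the ratio was 1.16. With every cell weighted alike, as the mean of the CPM per cell, the ratio was 0.97 and no longer 2-fold. The fat body list differed in the same direction, with 8 of 8 genes higher in p35;RasV12 and 4 of them by 2-fold. Its median log2 ratio was 0.98. Lsp1alpha, Lsp1beta, Lsp2 and apolpp were the 4, at 1.63, 1.55, 1.06 and 1.39. Among the others, Fbp1 hardly differed, at 0.05, and Adh was read in only 7 of 59 attached cells, so its direction carries little weight. Only 7 of the 8 passed the minimum level for the genes compared. Their median was 1.06, beside a median of -0.07 over all genes compared. Lsp1alpha, Lsp1beta and Lsp2 are larval serum proteins, and apolpp is the lipid carrier of the hemolymph. The summed fat body list was 24078 CPM in RasV12 and 47019 CPM in p35;RasV12, so fon moved with the list between genotypes. Reads of fon occurred in every attached cell of both genotypes, but also in all 14 _C wells with over 1000000 reads. A share with any read therefore cannot tell a difference in level from a difference in share. Above the highest of these wells, at 24.2 CPM in a well that did not pass the filter set for cells, were 35 of 40 RasV12 and 17 of 19 p35;RasV12 cells. The part of fat body RNA in the difference between genotypes was not tested.

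Cell by cell, fon followed the fat body transcripts. The Spearman correlation with the summed list was 0.78 over 59 attached cells, 0.79 within RasV12 and 0.72 within p35;RasV12. Of the 8428 genes set against the same list, 0.273% had a higher rho than fon, and the median gene had -0.08. Each of the 8 fat body genes had a positive rho with fon, highest for Lsp1beta (0.79), Lsp2 (0.78), Lsp1gamma (0.74) and Fbp1 (0.72), and lowest for Adh (0.23), which was read in 7 of 59 cells. The median of the 8 was 0.68, and the median between pairs of fat body genes was also 0.68. With the number of reads per cell fon had a rho of -0.18. fon and the salivary gland list had a rho of 0.12, with 0.26 within RasV12 and -0.20 within p35;RasV12 cells, and fon and the plasmatocyte list one of -0.40. The 7 plasmatocyte genes all had a negative rho with fon, from -0.46 for Col4a1 to -0.15 for NimC1. Hml and fon themselves had a rho of -0.34.

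**Figure D3:**
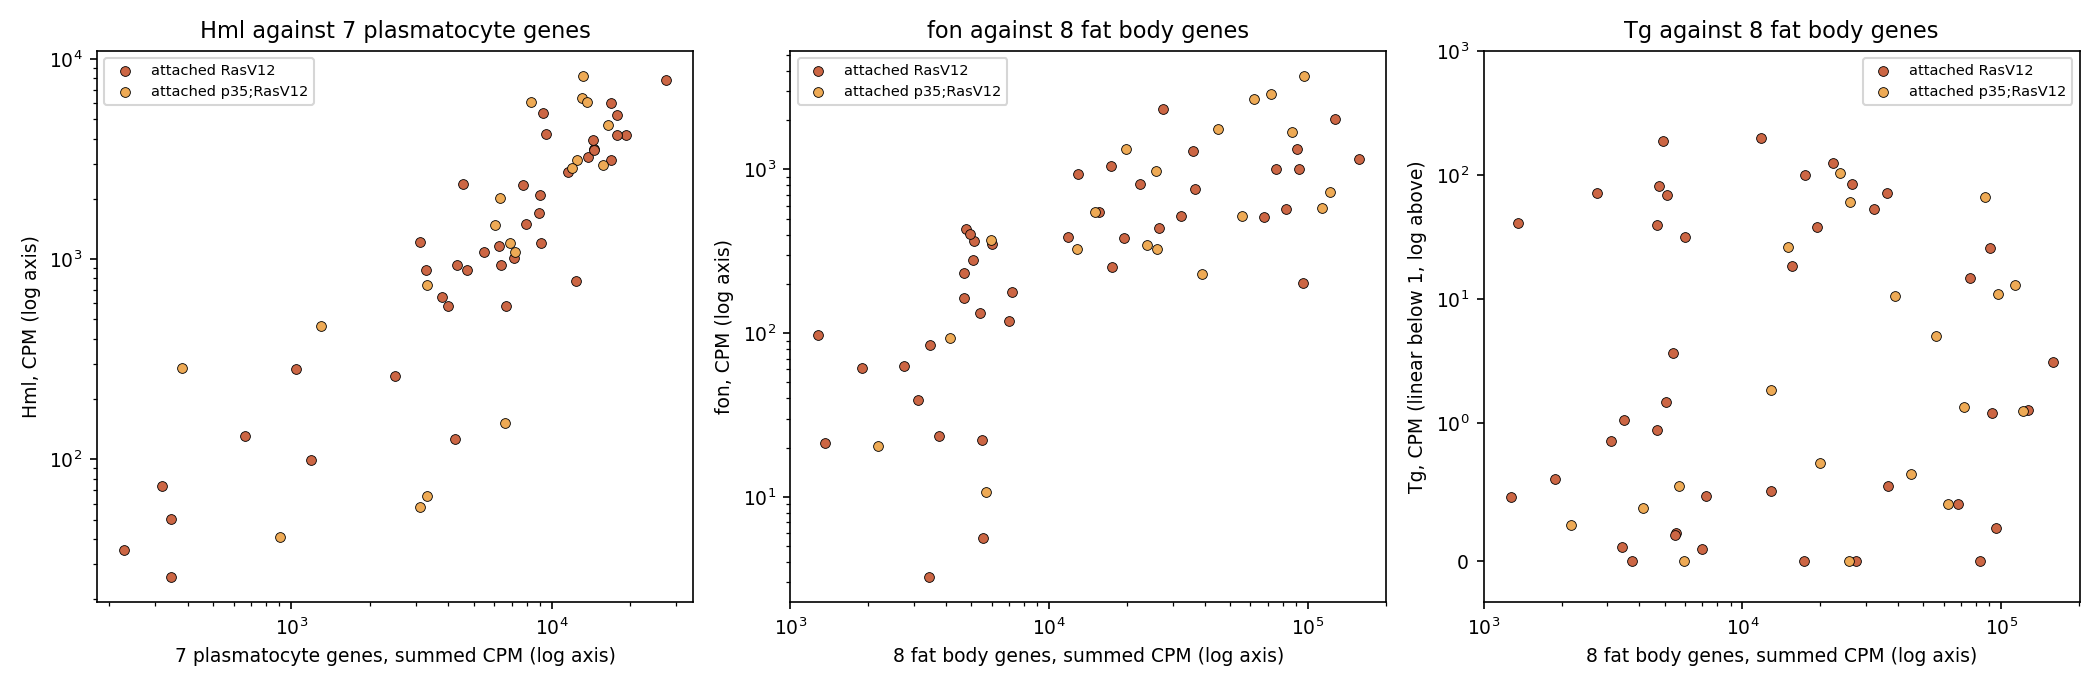
Each attached cell by the summed CPM of a gene list (log axis) and by the level of Hml, fon or Tg (log axes; Tg linear below 1), with RasV12 and p35;RasV12 cells in different colours. Hml climbs with the 7 plasmatocyte genes (rho 0.88) and fon with the 8 fat body genes (rho 0.78). Tg shows no such climb with the fat body genes (rho 0.08), and no cell lies between 5.02 and 10.5 CPM of Tg.

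The 5 genes most like fon over attached cells were Obp99c (0.82), CG2233 (0.82), TotA (0.81), CG8157 (0.80) and Lsp1beta (0.79), again among 8434 genes, of which 25 reached 0.7. Obp99c encodes an odorant-binding protein, TotA a secreted stress-response protein of the Turandot family and Lsp1beta a subunit of larval serum protein. All 5 shared the distribution of fon between locations. In circulating groups none exceeded 38.0 CPM, and Obp99c was at most 0.725 CPM and TotA at most 0.531 CPM. In attached cells they ranged from 111 to 6017 CPM in RasV12 and from 302 to 17560 CPM in p35;RasV12, and like fon each was higher in p35;RasV12.

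The proportion of fon to fat body transcripts was nevertheless not constant. There were 22.6 reads of fon per 1000 reads of the list in the median attached cell, with quartiles of 11.7 and 39.0 and a range from 0.938 to 90.7. Over the summed reads of a group the proportion was 18.2 in RasV12 and 23.8 in p35;RasV12. The SD over cells of the log2 of fon relative to the list was 1.54. By the same measure, with each gene taken out of the list, Lsp2 and Lsp1gamma had 0.64 and apolpp 2.06, so that fon lay within the span of the list's own genes. In circulating cells, the list had 3868, 3723 and 5701 reads in w1118, RasV12 and p35;RasV12. The proportion in attached RasV12 cells would give 70.4, 67.7 and 104 reads of fon there, beside the 29, 0 and 10 counted. The list had another mix in circulating cells, so these values set no expectation for fon. apolpp held 1845, 1835 and 1322 of the reads there, against 336 of 24078 CPM in attached RasV12 cells.

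**Figure D4:**
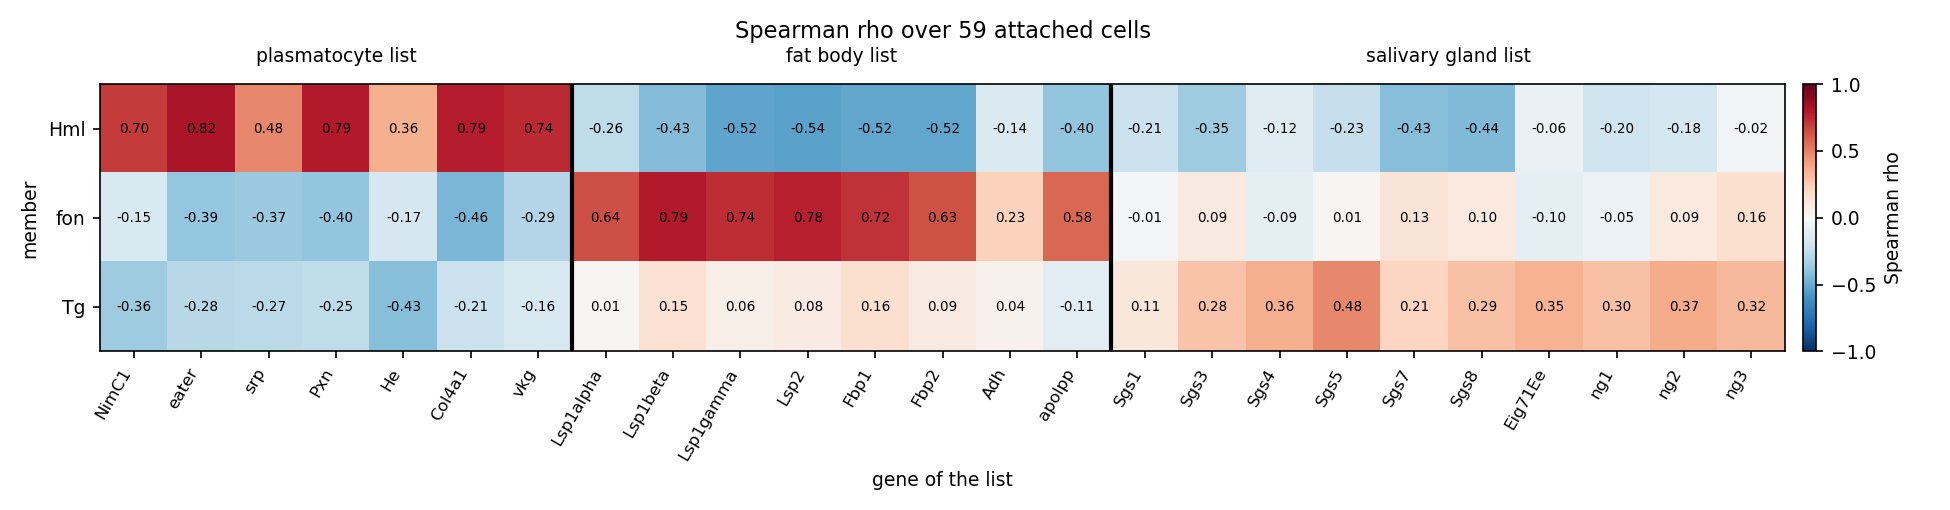
Spearman's rho over 59 attached cells between Hml, fon or Tg (rows) and each gene of the plasmatocyte, fat body and salivary gland lists (columns), printed in each field, where red is positive and blue negative. Hml is positive with all 7 plasmatocyte genes, fon with all 8 fat body genes and Tg with all 10 salivary gland genes, the last with a highest rho of 0.48 for Sgs5.

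Tg (FBgn0031975) lies on chromosome 2L of dm6 from 8011405 to 8026898 on the plus strand, with 3129 bases of exons. In circulating cells it had no read in 125 w1118 cells, 11 reads in 1 RasV12 cell and 21 reads in 2 p35;RasV12 cells, in which it stood at 18.2, 14.6 and 18.4 CPM. For w1118, 0 of 125 cells allows a share of up to 2.40% when set to 3 cells, with a Clopper-Pearson upper limit of 2.91%. The shares were 0.794% (0.0201% to 4.34%) for RasV12 and 1.61% (0.196% to 5.70%) for p35;RasV12. None of the 3 cells with Tg was among the 3 cells with fon. One of the cells with Tg had only 285 CPM of Hml and 10397 CPM of lamellocyte genes, while the other 2 had 7079 and 6857 CPM of Hml.

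In attached cells Tg was read in 36 of 40 RasV12 and 17 of 19 p35;RasV12 cells, at a low level in most. It ranged from 0 to 197 CPM with a median of 1.38 CPM in RasV12, and from 0 to 103 CPM with a median of 1.35 CPM in p35;RasV12, so that the genotypes overlapped over nearly all of their range. After thinning to 420000 reads, it was read in 19 of 39 (48.7%) and 7 of 17 (41.2%) cells, against 90.0% and 89.5% at full depth. Summed Tg was 24.2 CPM in RasV12 and 16.5 CPM in p35;RasV12, log2 ratios of 7.33 (6.49 to 8.33) and 5.93 (5.31 to 6.62) over the circulating cells of the same genotype. Tg was under the minimum of 50 CPM in all groups and is therefore not among the genes behind the percentages given above. A log2 ratio of -0.55 (-0.60 to -0.50) was found for attached p35;RasV12 over RasV12, where 1 cell held 54.8% of the p35;RasV12 reads, and without the top cell of each group it was -1.41.

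For description, attached cells were divided at 10 CPM of Tg, a level chosen after the values were seen, into a high and a low set. Above it were 17 of 40 RasV12 and 7 of 19 p35;RasV12 cells, the lowest of them at 10.5 CPM. The highest of the other 35 cells stood at 5.02 CPM, in a cell of only 398122 reads. The high set held shallow cells as well, a RasV12 cell of 261607 reads at 38.2 CPM and a p35;RasV12 cell of 383877 reads at 26.1 CPM. Whether these are separate kinds of cells was not tested. The high and low sets had like numbers of reads, with medians of 12057190 and 10762650. Both contained cells with little and with much Hml, fon and fat body RNA. In the high set the median was 1120 CPM for Hml, 417 CPM for fon and 20901 CPM for the fat body list, and in the low set 1700, 325 and 12844 CPM. The median of the salivary gland list was 26293 CPM in the high set (677 to 221895 CPM) and 7486 CPM in the low set (533 to 326292 CPM), and that of the plasmatocyte list 5032 and 9067 CPM, with ranges that overlapped.

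High Tg was more frequent among the lower library numbers. Up to library number 40, 12 of 20 RasV12 and 5 of 10 p35;RasV12 cells were above 10 CPM, and after it 5 of 20 and 2 of 9. What the numbers stand for is not given in the sources used here. The median of Tg in RasV12 cells was 28.6 CPM up to number 40 and 0.491 CPM after it, whereas that of fon was 357 and 457 CPM and that of Hml 1120 and 1451 CPM. The part of the library number in the level of Tg was not tested.

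Tg did not follow the fat body transcripts as fon did. Its rho with the fat body list was 0.08 over 59 attached cells, and 23.7% of 8428 genes had a higher one. This value differed between genotypes, with -0.02 over 40 RasV12 and 0.43 over 19 p35;RasV12 cells. Against the single fat body genes, rho of Tg ranged from -0.11 for apolpp to 0.16 for Fbp1. With the plasmatocyte list rho was -0.33, and all 7 genes were negative. With the salivary gland list it was 0.34, all 10 genes were positive, and 6.66% of 8425 genes had a higher rho with the list. Sgs5, a glue protein of the gland, had the highest at 0.48. With the share of mitochondrial reads in a cell, Tg had a rho of -0.50, against 0.39 for Hml and -0.13 for fon, and the part of that share in these relations was not tested.

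The genes most like Tg over attached cells were CG32137 (0.67), bbg (0.66), NLaz (0.66), Timp (0.66) and CG6424 (0.64). None of the 8434 genes reached 0.7 with Tg. NLaz encodes a lipocalin of the apolipoprotein D kind and Timp an inhibitor of metalloproteinases. In circulating cells, where only 3 cells had a read of Tg, no likeness can be read, and the 5 highest values, of ItgaPS5, Ac78C, Men, GstE2 and CG3764, were between 0.16 and 0.19.

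Other components of the clot were taken from a list of 12 genes, of which larval serum proteins and further hemolymph proteins (Lsp1alpha, Lsp1beta, Lsp1gamma, Lsp2, Fbp1 and apolpp) form a first part. These 6 also belong to the fat body list. Like fon, they were higher in attached than in circulating cells. All 6 were also higher in attached p35;RasV12 than RasV12 cells, with Fbp1 at a log2 ratio of only 0.05. While fon had no read in circulating RasV12 cells, each of these was read in some circulating cells of every genotype, from 7 to 54 cells per group, and apolpp at 17.1 to 25.1 CPM. Tig, which encodes the matrix protein tiggrin, and Idgf3, a chitinase-like clot protein, formed a second part that resembled Hml in that it was read in nearly all circulating cells. Tig had 738, 1008 and 1162 CPM and Idgf3 340, 642 and 1343 CPM in circulating w1118, RasV12 and p35;RasV12 cells, in the same order as Hml. In attached cells Tig was lower than in circulating cells of the same genotype, at 476 and 443 CPM, while Idgf3 had 994 and 1167 CPM. Eig71Ee, a gene of the larval salivary gland and gut whose product is found in clots, was at 0 in circulating w1118 and RasV12 cells and stood at 184 and 43.8 CPM in attached cells.

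The prophenoloxidases PPO1, PPO2 and PPO3 have products that harden and melanize the clot. PPO1 and PPO2, which crystal cells make, stood at 111 and 376 CPM in attached RasV12 and 4590 and 10953 CPM in attached p35;RasV12 cells, where 1 cell held 43.3% of the PPO2 reads and the median cell had 189 and 413 CPM. PPO3, known from lamellocytes, was highest in circulating p35;RasV12 cells at 72.6 CPM and at most 5.38 CPM in attached groups. Over the list of 12, attached p35;RasV12 over RasV12 gave 9 genes higher and 3 lower, with a median log2 ratio of 0.86. Of the 11 that passed the minimum of 50 CPM and 25% of cells, 6 were at least 2-fold higher, beside 18.3% of all genes compared. The 6 were PPO1, PPO2, Lsp1alpha, Lsp1beta, Lsp2 and apolpp. All but PPO1 and PPO2 are also on the fat body list and were counted there, so the counts of the lists are not independent. RasV12 over w1118 circulating cells gave 9 higher and 2 lower among 11 genes over the floor of 3 reads, with a median of 0.36. Only 3 of the 12 passed the minimum there, and 1 of these was at least 2-fold higher, beside 4.77% of all genes compared. This was PPO2, at a log2 ratio of 2.22, and 1 cell held 87.9% of its RasV12 reads. PPO1, among the 9 higher, had 85.9% of its RasV12 reads in 1 cell. Ratios of PPO1 and PPO2 without these reads were not computed.

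Of 5 genes that control the activation of prophenoloxidase, the serpin gene Spn27A was read in most cells, with 610, 475 and 493 CPM in circulating w1118, RasV12 and p35;RasV12 cells and 445 and 805 CPM in attached RasV12 and p35;RasV12 cells. The proteases Hayan and Sp7 were low, Hayan with at most 1.10 CPM in circulating and 8.20 CPM in attached groups and Sp7 with at most 37.1 CPM in any group. Sp7 had 36.2, 17.1 and 0.336 CPM in circulating w1118, RasV12 and p35;RasV12 cells. It was read in 44 of 125, 23 of 126 and 4 of 124 of these cells. The protease MP1 was at 0 in every group and the serpin Spn28Dc between 18.8 and 33.5 CPM. Between attached genotypes, 2 of the 4 with reads were higher and 2 lower, none by 2-fold. In circulating RasV12 over w1118 cells, 1 was higher and 3 were lower, and in p35;RasV12 over w1118 cells all 4 were lower. Hayan and Sp7 were lower by at least 2-fold in both. Of the 5 genes, only 1 passed the minimum of 50 CPM and 25% of cells in these comparisons.

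**Figure D5:**
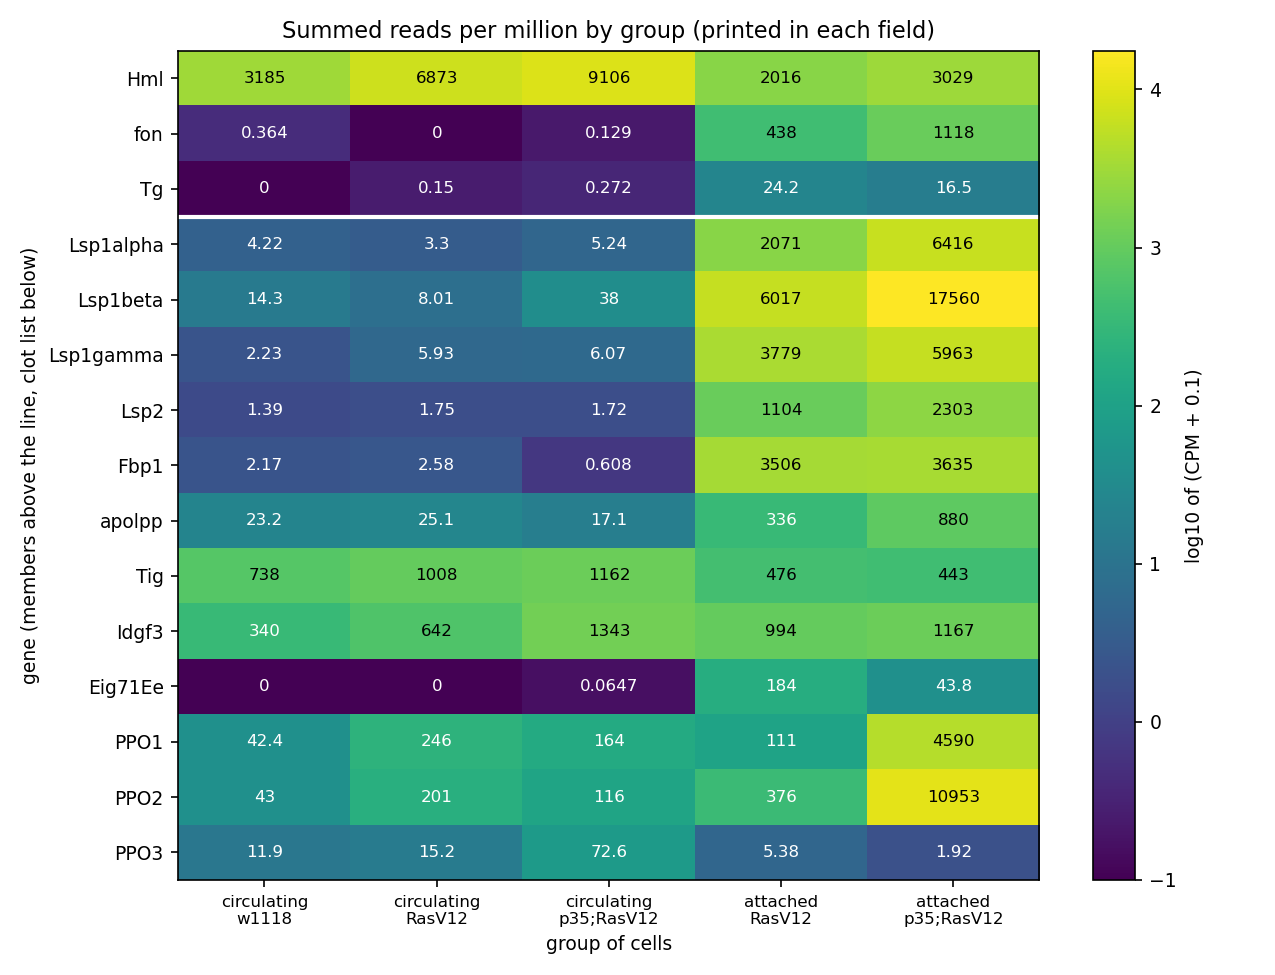
Summed CPM of Hml, fon and Tg (above the line) and of the 12 genes of the clot list (below it) in the 5 groups, printed in each field and coloured by the log10 of CPM plus 0.1 and compared along a row, since genes differ in length. All genes shown have reads in every group except fon, Tg and Eig71Ee, which are at or near 0 in circulating groups and present in attached ones. Hml, Tig and Idgf3 are read in all or nearly all cells of each group.

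Among the wells of the attached set, 17 carry the labels w1118_C (8 wells), Ras_C (5) or p35Ras_C (4), which the sources used here do not explain and which entered no group. The 14 with over 1000000 reads had a wide range of Hml, from 5.80 to 9632 CPM, and little fon, from 1.32 to 24.2 CPM. Above their highest level of fon were 35 of 40 attached RasV12 and 17 of 19 attached p35;RasV12 cells. For Tg, the highest of these wells stood at 2.05 CPM, and 19 of 40 and 8 of 19 attached cells were above it. The same w1118_C well was highest for fon and Tg, and with 13.3% mitochondrial reads it did not pass the filter set for cells. Among the _C wells with over 1000000 reads that passed it, the highest levels were 10.9 CPM of fon and 0.908 CPM of Tg. Their fat body list, from 228 to 3136 CPM, was low as well. A share with any read is thus no sign of the gene in this set, since fon was read in all 14 of these wells.

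A further 6 wells of the attached set, 3 of them kept attached cells and 3 _C wells, had only 195990 to 401080 reads, and their levels lay on both sides of those over the whole set. In these, fon was 292 to 582 CPM, Hml 1485 to 4138 CPM and the fat body list 10709 to 55820 CPM, whereas over all reads of the 79 wells fon was 567 CPM, Hml 2429 CPM and the fat body list 25920 CPM. Without the 3 kept cells among them, rho of fon with the fat body list was 0.78 and that of Hml with the plasmatocyte list 0.88, both as with them.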

How the data were processed

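Circulating and attached hemocytes were sequenced as single cells. The authors aligned reads to dm6 (annotation release 6.37) with STAR 2.7.2 and made counts of reads per gene with featureCounts 2.0.0 at default settings, which do not use strand. Those raw counts were deposited with an annotation of genotype and cluster, whose percent of mitochondrial reads, as deposited by the authors, is 0 throughout and was computed anew. Of the 17612 identifiers 17549 matched a symbol. Kept cells had 200 or more genes and no more than 10% mitochondrial reads, and 3 attached wells were matched to the annotation by running number.

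Reads were summed per group and scaled to 1000000, shown as CPM. Log2 ratios had exact Poisson intervals and shares Clopper-Pearson intervals, both at 95%, and a group at 0 was set to 3 reads. No test across samples was possible with 1 set of larvae or glands per group. A 2-fold difference was counted among genes that reached 50 CPM, and were read in 25% of cells, in whichever group was higher. Genes named are Hml, fon, Tg, the 5 genes with the highest Spearman rho to each among genes read in 25% of cells, and genes of fixed lists on which a statement rests. These 3 genes and all lists were chosen with earlier results of these data known. Ranking by rho was tested on simulated data. The plasmatocyte list leaves out Hml.

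Results were recomputed with CPM averaged over cells, groups without their top cell, other filters, other totals, TMM, thinning to 420000 reads, at least 5 reads for a share, single genotypes, Pearson's r, and, added after seeing the data, single clusters and attached cells over 1000000 reads. No group includes the wells labelled _C or the 5 that lack a genotype. Software was R 4.3.3 with edgeR 4.0.16, used only for TMM factors on summed counts of groups, and Python 3.11.15 with scipy 1.17.1, matplotlib 3.10.9, pandas 2.3.3 and numpy 2.4.6.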

Additional observations from a re-analysis of the deposited data

Results flagged for a closer look

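All values here come from wells that enter no group and stand out only because they hold reads of the 3 genes above the limit that a count of 0 allows. Among w1118_C wells with over 1000000 reads, the highest well had 24691 reads of Hml, 118 of fon and 10 of Tg. Among Ras_C wells it had 56484 reads of Hml, 158 of fon and 4 of Tg, and among p35Ras_C wells 145293 reads of Hml and 86 of fon. The highest of the 4 circulating wells without a genotype, which hold 866 to 2500 reads each, had 9 reads of Hml. The 1 attached well without a genotype had 21396 reads of Hml, 962 of fon and 12 of Tg.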

How the results depend on the processing

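No paired analysis was possible because each group is a single set of larvae or glands and the labels number no replicates. Of 103 log2 ratios recomputed, 103 kept their sign, 58 stayed within their counting interval and 45 moved beyond it. The 58 include ratios between circulating groups recomputed without attached cells under 1000000 reads, which this alternative could not change. Ratios within single clusters, an alternative chosen after seeing the data, are not among the 103, and for Hml in RasV12 over w1118 cells they included -0.18 and -0.76. For Hml in circulating RasV12 over w1118 cells (1.11), the values outside it were 1.14 without the top cells, 1.94 under the stricter filter, 1.00 with TMM and 1.06 after thinning, and for p35;RasV12 over RasV12 (0.41) they were 0.42, 0.017, 0.30 and 0.43, and 0.40 without a filter. For Hml in attached p35;RasV12 over RasV12 cells (0.59), they were 0.34 by the mean over cells, 0.33 without the top cells, 0.60 without a filter, 0.61 without mitochondrial and rRNA genes, 0.63 without the lists in the total, 0.89 with TMM and 0.41 after thinning. For attached over circulating RasV12 cells (-1.77) they were -1.89 without the top cells, -1.76 and -1.68 with the other totals and -1.41 with TMM. For p35;RasV12 (-1.59) they were -1.83 by the mean over cells, -1.98 without the top cells, -1.58 without a filter, -1.56 and -1.45 with the other totals, -0.82 with TMM and -1.79 after thinning. For fon in attached p35;RasV12 over RasV12 cells (1.35), they were 0.97 by the mean over cells, 1.16 without the top cells, 1.52 without a filter, 1.38 and 1.40 with the other totals, 1.66 with TMM and 1.04 after thinning. For Tg (-0.55) they were -0.98 by the mean over cells, -1.41 without the top cells, -0.65 without a filter, -0.24 with TMM and -0.69 after thinning. TMM moved every ratio of a comparison alike, by -0.11, -0.10, 0.31, 0.36 and 0.77 in this order of comparisons. The cause of the other shifts was not tested. The stricter filter left no attached cell and gave no value there. Of 63 values of rho, 60 stayed near the main one, and the other 3 came from p35;RasV12 cells alone, at 0.43 for Tg with the fat body list, -0.69 for Tg with the plasmatocyte list and -0.20 for fon with the salivary gland list. The 5 genes most like each of the 3 in attached cells, and like Hml in circulating cells, were the same 5 when genes read in 10% of cells were allowed.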
